A study of Mus musculus with 9 samples.

Results

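Of the 23420 genes in the table of 9 mouse libraries, 10 mark the cartilage and tendon lineages and are described here. They were chosen by name, with earlier results of these data known, and all 10 were found. Acan, Hapln1, Chad, Cilp and Cilp2 code for matrix proteins of cartilage, Sox9, Sox5 and Sox6 for the transcription factors of the chondrocyte program, and Scx and Tnmd for a transcription factor and a membrane protein of tendon. The cells were primary ankle cultures at passage 1 from C57BL/6 mice, with 3 libraries in each of 3 groups. Arthritis tissue-derived synovial fibroblasts (ADSF) came from swollen ankles with collagen antibody-induced arthritis (CAIA). Normal tissue-derived synovial fibroblasts (NDSF) came from ankles without arthritis. Arthritis tissue-derived synovial macrophages (ADSM) came from the same kind of swollen ankle as ADSF. By the methods of the study, CAIA mice received 5 mg of antibody against type II collagen and, on day 3, 50 µg of lipopolysaccharide, and their ankles were taken after 10 days. The age of the mice was not stated.

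Articular cartilage owes its stiffness to aggrecan, a proteoglycan that link protein fixes to hyaluronan. SOX9 switches on cartilage matrix genes together with SOX5 and SOX6, which lack an activation domain of their own and help SOX9 at its enhancers. Tendon cells arise from progenitors that express Scx, and Tnmd, coding for tenomodulin, marks their later maturation. Synovial lining cells and articular chondrocytes descend from common progenitors of the embryonic joint.

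Both fibroblast groups carried transcripts of most of these genes, and ADSM carried hardly any. Chad and Cilp2 were almost absent from ADSF as well, with 4 reads and 1 read. Chad, Cilp, Cilp2, Sox5 and Tnmd were lower in ADSF than in NDSF. Acan, Hapln1, Sox9, Sox6 and Scx were not called in either direction.

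The groups had limits as models of their tissues. The fibroblasts were whatever attached to a collagen-coated dish after collagenase, the macrophages were grown beside fibroblasts that were later detached, and the study describes its cells as coming from independent ankles. No label ties a library to an ankle or an animal, so each p-value speaks of the spread among these libraries. The study prepared ADSM and ADSF with a TruSeq kit and NDSF with a NEBNext kit, whereas the deposited labels name the TruSeq kit throughout. For ADSF against NDSF, kit and ankle state thus cannot be told apart. For NDSF against ADSM, kit, ankle state and cell type cannot be told apart. The study used female mice. However, the summed level of 4 Y-linked genes was 0 in every ADSF and NDSF library and 337 to 469 in ADSM, so sex and cell type cannot be told apart in comparisons with ADSM.

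Values are read numbers divided by a TMM (trimmed mean of M values) factor per library. A single read was worth 0.854 to 1.24 of such a value, and libraries held 2380483 to 3351184 reads. NDSF library 3 stood apart. The chi-square of reads per degree of freedom was 17.1 and 13.4 between it and NDSF libraries 1 and 2, 1.57 between libraries 1 and 2, and 3.89 to 5.36 within ADSF. Tests were run with limma on the log2(value + 1) scale, on which the change of a low gene is understated, over 11889 genes that reached a value of 10 in at least 3 libraries. A gene was called at a Benjamini-Hochberg adjusted p under 0.05. All 10 genes passed the filter, but Chad and Cilp2 reached 10 only in NDSF libraries and Sox5 in 1 ADSF and 3 NDSF libraries. These 3 entered the test through the group where they are high, so the number of calls over the 10 genes is a description of them. None of the 10 genes reached 10 in an ADSM library. In the comparisons with ADSM all 10 thus entered through the fibroblasts, and those counts are a description as well. In bulk RNA, fewer cells of a type and less RNA per cell cannot be told apart.

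The stretches upstream of the 5 genes that were lower in ADSF are shown because these genes moved the same way, and SOX factors and SCX bind short DNA motifs. The RefSeq promoter table (GRCm38.p6) held a window for 8 of the 10 genes, Sox9 and Scx being the other two. The 250 bases before the start were searched on both strands for the SOX motifs ACAATG and AACAAT and for the E-box CAGATG, and capitals mark a match. The sequences run 5′ to 3′ on the gene's strand.
Chad, chr11:94564797-94565046, + strand: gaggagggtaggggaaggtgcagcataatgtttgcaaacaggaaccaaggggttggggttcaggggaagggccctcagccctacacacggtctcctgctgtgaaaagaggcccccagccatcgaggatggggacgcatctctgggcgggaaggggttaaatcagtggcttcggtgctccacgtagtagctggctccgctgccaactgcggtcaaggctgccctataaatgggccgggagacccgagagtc
Cilp, chr9:65264930-65265179, + strand: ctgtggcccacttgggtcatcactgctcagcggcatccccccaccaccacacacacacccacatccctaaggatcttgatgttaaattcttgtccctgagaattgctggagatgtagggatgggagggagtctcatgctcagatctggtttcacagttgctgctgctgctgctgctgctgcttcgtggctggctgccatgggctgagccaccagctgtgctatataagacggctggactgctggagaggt
Cilp2, chr8:69887393-69887642, - strand: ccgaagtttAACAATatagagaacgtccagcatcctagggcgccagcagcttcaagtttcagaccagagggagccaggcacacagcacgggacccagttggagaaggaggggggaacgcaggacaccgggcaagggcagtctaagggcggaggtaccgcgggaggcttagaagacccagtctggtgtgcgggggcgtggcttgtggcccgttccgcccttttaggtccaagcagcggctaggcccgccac
Sox5, chr6:143947107-143947356, - strand: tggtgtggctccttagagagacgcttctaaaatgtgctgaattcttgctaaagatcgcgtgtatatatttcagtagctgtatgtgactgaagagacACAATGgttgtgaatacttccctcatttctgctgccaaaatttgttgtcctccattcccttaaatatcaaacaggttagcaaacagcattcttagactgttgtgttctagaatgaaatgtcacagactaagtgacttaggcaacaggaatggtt
Tnmd, chrX:133850758-133851007, + strand: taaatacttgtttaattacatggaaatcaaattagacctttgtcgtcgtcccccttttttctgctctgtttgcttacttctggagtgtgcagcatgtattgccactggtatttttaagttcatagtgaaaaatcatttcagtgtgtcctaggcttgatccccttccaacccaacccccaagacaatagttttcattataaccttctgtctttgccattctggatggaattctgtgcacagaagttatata

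Among these 5 windows, a SOX motif stood in that of Cilp2, starting 241 bases before the start, and in that of Sox5, 154 bases before it. The Sox5 window belongs to a start inside the gene. None of the 3 motifs was found in the windows of Chad, Cilp and Tnmd, nor in those of Acan and Hapln1. Of the 6 windows of Sox6, 2 held a SOX motif and 2 the E-box. Over all 32851 windows, 16.2% held a SOX motif (ACAATG 10.7%, AACAAT 9.42%, with overlaps) and 14.4% the E-box, so a match is common and describes letters only.

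The genes of aggrecan and its link protein had nearly level means in the fibroblast groups. Acan, coding for aggrecan (chromosome 7 of mm10, 79053483 to 79115099, 17 exons), had values of 15.9, 19.9 and 33.7 in ADSF, against 11.0, 28.0 and 28.2 in NDSF, with no read in any ADSM library. The ADSF and NDSF libraries overlapped in full, with means of 23.2 ± 9.32 and 22.4 ± 9.83 (SD, n = 3). The log2 fold change was 0.09 (95% interval -0.80 to 0.98, adjusted p = 0.898, limma), an interval too wide to call the groups equal. Its direction turned when 1 library was left out, to -0.21 without ADSF library 3 and -0.33 without NDSF library 1. Hapln1, the link protein gene (chromosome 13, 89540636 to 89611832), had 15.9, 9.96 and 13.2 in ADSF and 14.7, 13.0 and 11.3 in NDSF, again with no read in ADSM. These libraries also overlapped, with a log2 fold change of -0.01 (95% interval -0.65 to 0.63, adjusted p = 0.984, limma). Both genes rested on few reads, 60 and 70 over the ADSF and NDSF libraries for Acan, and 35 and 41 for Hapln1.

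**Figure D1:**
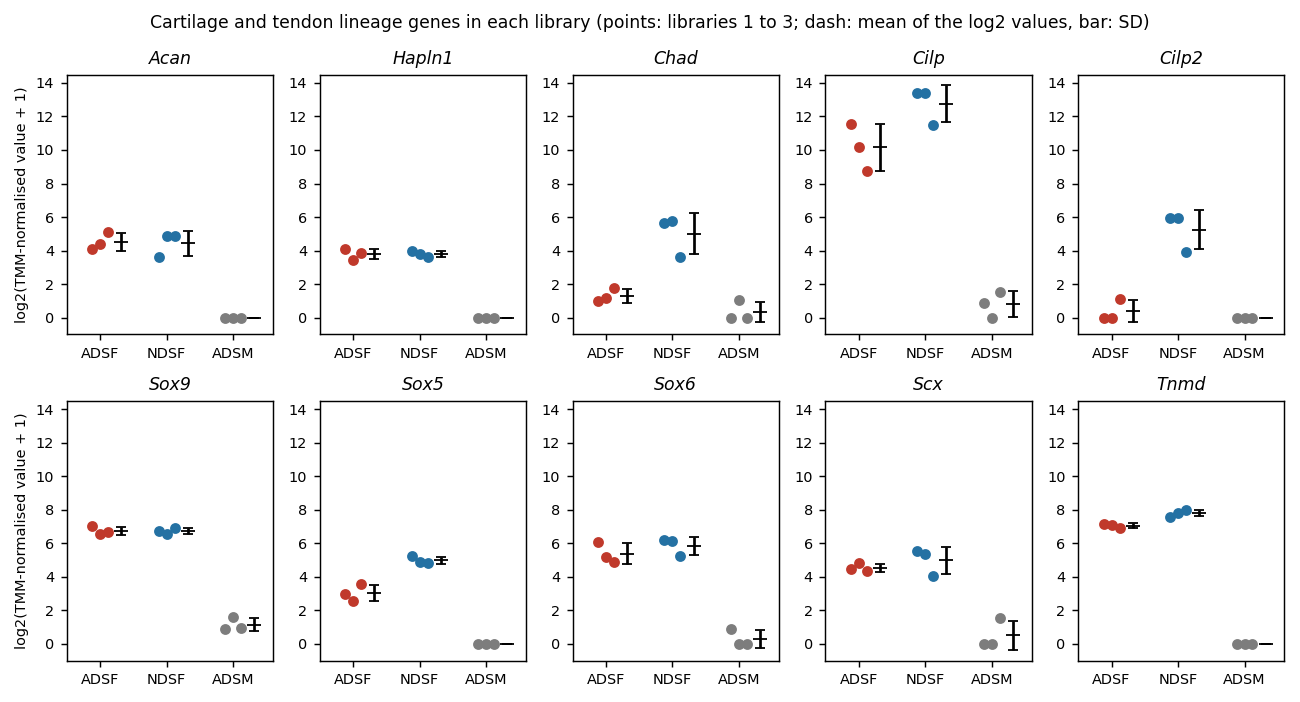
Values of the 10 genes on the log2(value + 1) scale, 1 panel per gene, with ADSF, NDSF and ADSM from left to right. Points are the 3 libraries of a group, the dash is the mean of their log2 values and the bar its SD. All ADSF libraries lie below all NDSF libraries for Chad and Cilp2, whereas the ADSF and NDSF libraries overlap for Acan, Hapln1 and Sox9.

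The cartilage intermediate layer proteins and chondroadherin behaved differently. Cilp, which codes for a matrix protein of the middle zone of cartilage (chromosome 9, 65265180 to 65280605, 10 exons), had the highest mean of the 10 genes per length of transcript in both fibroblast groups. Its values were 3009, 1140 and 436 in ADSF and 10885, 10954 and 2835 in NDSF, beside 0.854, 0 and 1.87 in ADSM. Within ADSF its highest library was 6.90 times the lowest, and ADSF library 1 lay above NDSF library 3. The log2 fold change was -2.60 (SE 0.697, 95% interval -4.15 to -1.06, adjusted p = 0.0256, limma). That call ended without ADSF library 2 or 3 or NDSF library 1 or 2, with limma adjusted p = 0.0800, 0.0895, 0.103 and 0.111, within 0.00402 to 0.111 over its alternatives.

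Cilp2, the paralog of Cilp (chromosome 8, 69880366 to 69887392, minus strand, 8 exons), was almost confined to NDSF among these libraries. It had 0, 0 and 1.20 in ADSF, which is 1 read in all, against 59.8, 59.9 and 14.1 in NDSF and no read in ADSM. The groups did not overlap. Cilp2 had a log2 fold change of -4.88 (SE 0.552, adjusted p = 0.000482, limma). In read counts the ADSF level was 0.00852 of the NDSF level, with an exact 95% interval of 0.000214 to 0.0483 that covers counting error only. Chad, coding for chondroadherin, a leucine-rich protein that binds collagen and integrins (chromosome 11, 94565074 to 94569127), had 0.993, 1.24 and 2.40 in ADSF. Its values were 49.7, 52.9 and 11.3 in NDSF and 0, 1.04 and 0 in ADSM, so that all NDSF libraries lay above all others. In ADSF against NDSF, Chad had a log2 fold change of -3.70 (SE 0.568, adjusted p = 0.00238, limma). Chad lies within Acsf2 on the opposite strand with no shared exon base. Acsf2 averaged 38.7 in ADSF and 78.9 in NDSF, and the strand setting of the read counting was not stated.

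Chad and Cilp2 were also set against the amount of Cilp in each library, as a description with no test. Cilp2 came to 0, 0 and 2.75 per 1000 of Cilp in ADSF libraries 1 to 3, against 5.50, 5.47 and 4.97 in NDSF libraries 1 to 3. For Chad the same measure was 0.330, 1.09 and 5.51 in ADSF and 4.57, 4.83 and 3.97 in NDSF. The NDSF libraries thus held these genes in nearly 1 proportion, also library 3 where all of them were low. ADSF library 1 and NDSF library 3 had like amounts of Cilp, 3009 and 2835, but 0 and 14.1 of Cilp2 and 0.993 and 11.3 of Chad. In ADSF library 3 the proportions rest on 1 read of Cilp2 and 2 reads of Chad, and that of Chad lay above every NDSF library.

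**Figure D2:**
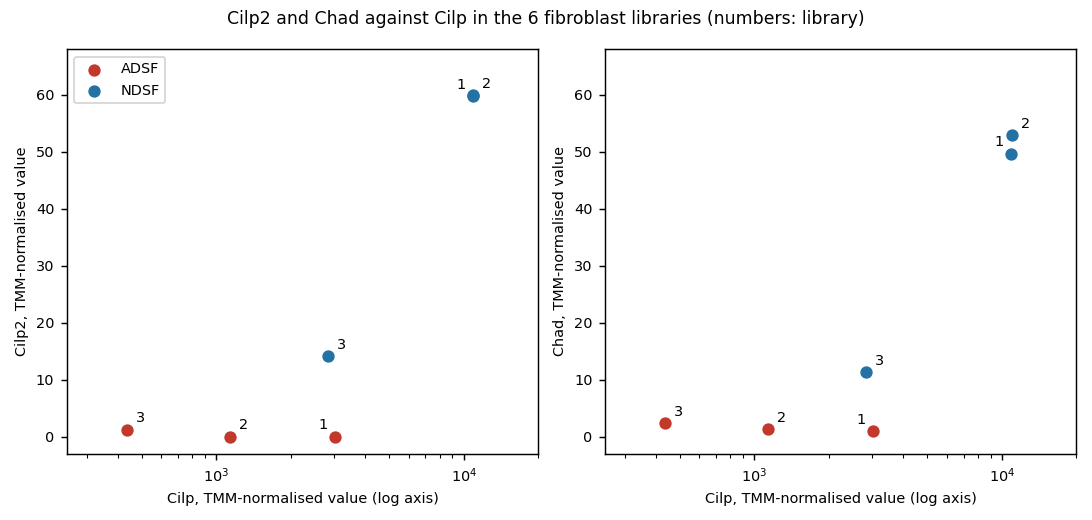
Value of Cilp2 (left panel) and Chad (right panel) against the value of Cilp on a log axis in the 3 ADSF (red) and 3 NDSF (blue) libraries, numbered by library. ADSF library 1 and NDSF library 3 stand at nearly the same Cilp value, 3009 and 2835, with Cilp2 at 0 and 14.1.

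Of the SOX trio, only Sox5 was called between the fibroblast groups. Sox9, the master gene of chondrocyte fate (chromosome 11, 112782210 to 112787757), had 128, 93.4 and 99.8 in ADSF and 104, 92.9 and 120 in NDSF, beside 0.854, 2.08 and 0.935 in ADSM. Fibroblast means were 107 ± 18.5 in ADSF and 106 ± 13.7 in NDSF, with full overlap. The log2 fold change was 0.01 (95% interval -0.54 to 0.57, adjusted p = 0.979, limma), which turned to -0.05 when libraries were scaled by total reads, to -0.12 without ADSF library 1 and to -0.08 without NDSF library 2.

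Sox5 (chromosome 6, 143828425 to 144209568, minus strand) had 6.95, 4.98 and 10.8 in ADSF and 36.8, 29.0 and 27.2 in NDSF, with no read in ADSM. The fibroblast groups did not overlap, and NDSF library 3 stood close to the other NDSF libraries. The log2 fold change was -1.94 (SE 0.318, 95% interval -2.65 to -1.24, adjusted p = 0.00318, limma), with adjusted p between 0.000981 and 0.0222 over 27 alternatives. Sox6, its close relative (chromosome 7, 115471344 to 116038744, minus strand), had 66.5, 34.9 and 28.8 in ADSF, against 71.8, 68.9 and 36.6 in NDSF and 1 read over the ADSM libraries. ADSF library 1 reached the level of NDSF libraries 1 and 2, and the log2 fold change of -0.47 (95% interval -1.36 to 0.42, adjusted p = 0.434, limma) was not called. Whether Sox5 and Sox6 differ from each other in this respect was not tested.

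Of the tendon genes, Tnmd was called between the fibroblast groups and Scx was not, and a difference between the 2 genes was not tested. Scx, coding for scleraxis (chromosome 15, 76457438 to 76459468, 2 exons), had 20.8, 27.4 and 19.2 in ADSF, against 46.0, 40.0 and 16.0 in NDSF and 0, 0 and 1.87 in ADSM. NDSF libraries 1 and 2 lay above all ADSF libraries and NDSF library 3 below them. Scx was not called, with a log2 fold change of -0.46 (95% interval -1.54 to 0.62, adjusted p = 0.533, limma). Scx lies within Bop1 on the opposite strand with no shared exon base, and Bop1 averaged 233 in ADSF, 152 in NDSF and 400.2 in ADSM, where Scx had 2 reads. Tnmd (chromosome X, 133851008 to 133865578, 7 exons) had 143, 136 and 119 in ADSF, against 192, 227 and 249 in NDSF and no read in ADSM. It was the steadiest of the 10 genes in ADSF, where the highest library was 1.20 times the lowest, and the fibroblast groups did not overlap.

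Tnmd was lower in ADSF by a log2 fold change of -0.74 (SE 0.190, 95% interval -1.16 to -0.32, adjusted p = 0.0220, limma), or 0.595 of the NDSF mean. The call ended without ADSF library 2 or 3 or NDSF library 1 or 2, with adjusted p = 0.0666, 0.0840, 0.0534 and 0.100 (limma), within a range of 0.00206 to 0.100 over its alternatives. Because Tnmd is X-linked, Xist, the RNA that silences an X chromosome in female cells, is given beside it. Xist ranged from 2721 to 2891 in ADSF and 1872 to 2477 in NDSF, and its part in the result was not tested.

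Over the 10 genes, 5 were lower and 0 higher in ADSF than in NDSF by limma, where 11.3% of all tested genes were lower and 9.88% higher. At an unadjusted p under 0.05, and by edgeR and DESeq2 on the recovered reads, 0 were higher and 5 lower as well. The median log2 fold change was -0.60 over the 10 genes and -0.01 over all tested genes. For 4 of the genes (Chad, Cilp2, Sox5 and Tnmd) every ADSF library lay below every NDSF library, as in 19.7% of all tested genes. For none of them did every ADSF library lie above every NDSF library, as in 18.4% of all tested genes. The count of 5 was 3 without ADSF library 2, ADSF library 3 or NDSF library 3, and 1 without NDSF library 1 or 2, where Chad and Cilp2 no longer met the filter. With the 11889 genes kept whichever library was left out, the count was 3 to 5, and Chad, Cilp2 and Sox5 were called each time. All 5 were then called without NDSF library 3, the library that stood apart.

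**Figure D3:**
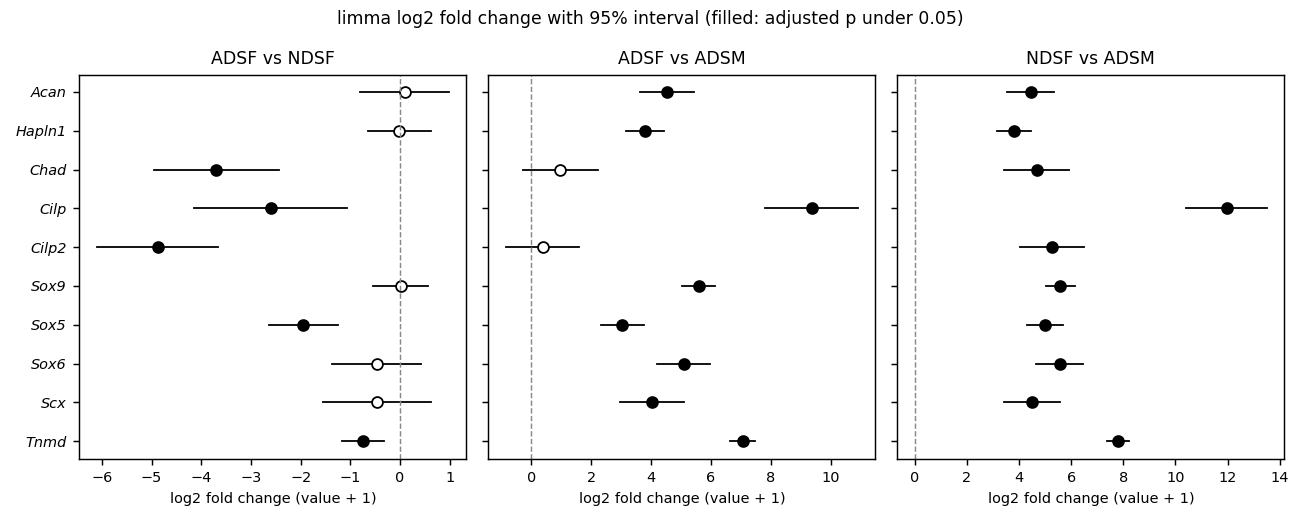
Log2 fold changes of the 10 genes by limma, with the 95% interval as a line, for ADSF against NDSF, ADSF against ADSM and NDSF against ADSM. Filled points passed an adjusted p under 0.05. Between the fibroblast groups the 5 filled points lie between -4.88 and -0.74, and the 5 open points between -0.47 and 0.09.

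Against macrophages from the same kind of ankle, the lineage genes were nearly all higher in the fibroblasts. By limma, 8 of 10 were higher in ADSF than in ADSM, where 41% of all tested genes were higher and 30.1% lower. The same 8 did not overlap between libraries, as in 43.3% of all tested genes upward and 33.4% downward. All 10 genes passed the filter through fibroblast libraries only, so these counts are a description. Chad and Cilp2, each with 4 reads or fewer in ADSF, were not called (log2 fold change 0.97, adjusted p = 0.148, and 0.38, adjusted p = 0.553, limma), although Chad passed without NDSF library 3 when the genes were fixed (adjusted p = 0.0307). Tnmd had a log2 fold change of 7.06 (SE 0.190, adjusted p = 1.86e-10, limma). Its ADSF mean was 142 times a floor of 3 reads over the ADSM libraries. The exact 95% interval of its ratio in read counts began at 115, for counting error only. On the same floor the multiple was 24.7 for Acan, 13.9 for Hapln1 and 8.10 for Sox5. Their exact 95% intervals began at 19.1, 10.9 and 5.99. Cilp had 4311 reads in ADSF and 3 in ADSM, a ratio of 1742 (exact 95% interval 596 to 8451, counting error only).

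NDSF stood above ADSM for all 10 genes by limma, where 43.3% of all tested genes were higher and 32% lower. Libraries did not overlap for any of the 10, as in 44.5% of all tested genes upward and 33.1% downward. Cilp2 and Chad were called here, with log2 fold changes of 5.26 (adjusted p = 6.36e-06, limma) and 4.67 (adjusted p = 2.07e-05, limma). Cilp2 was at least 47.6-fold higher in NDSF than in ADSM. These counts too are a description, because all 10 genes passed the filter through fibroblast libraries only. The comparisons with ADSM share its 3 libraries. Scaling by total reads moved the median log2 fold change over all tested genes from 0.14 to -0.19 between ADSF and ADSM. It also moved the share of higher genes among the calls from 57.7% to 44.5% in that comparison, from 57.5% to 47.9% between NDSF and ADSM and from 46.7% to 34.9% between ADSF and NDSF.

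Read per length, the order of the genes differed between the fibroblast groups. In ADSF the mean value per kb was highest for Cilp (368 ± 320.2, SD, n = 3), then Tnmd (99.95 ± 9.25), Sox9 (25.8 ± 4.45) and Scx (19.8 ± 3.80). Sox6 (5.11), Acan (3.15), Hapln1 (2.58) and Sox5 (1.03) followed, then Chad and Cilp2. Cilp and Tnmd overlapped between ADSF libraries, as did Sox9 and Scx, Sox6 and Acan, Acan and Hapln1, and Sox5 and Chad. In NDSF, Cilp (1980.5 ± 1124) and Tnmd (168 ± 21.4) led without overlap, and each later neighbour overlapped with the one above it except Scx with Tnmd. Chad and Cilp2 averaged 0.936 and 0.0996 per kb in ADSF, at the bottom of the order, and 23.0 and 11.1 in NDSF, above Sox6, Sox5, Acan and Hapln1. Acan and Hapln1, at 3.04 and 2.57 per kb, came last in NDSF.

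**Figure D4:**
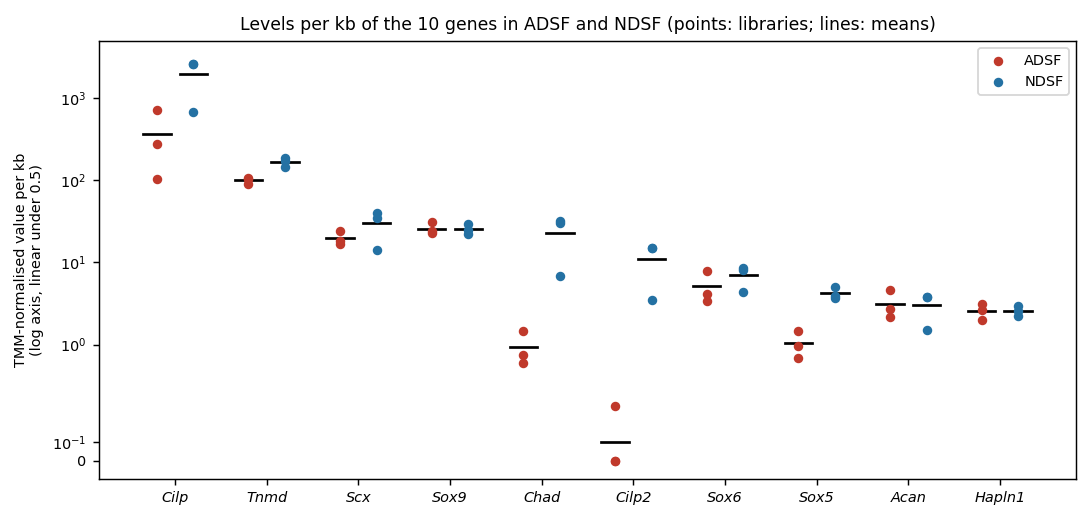
Value per kb of transcript on a log axis (linear under 0.5), for ADSF (red, left of each pair) and NDSF (blue), with genes in the order of their NDSF means. Points are libraries and lines are means. Chad and Cilp2 average 0.936 and 0.0996 in ADSF, and 23.0 and 11.1 in NDSF.

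Other cartilage matrix genes moved in both directions between ADSF and NDSF. Of 18 listed, 8 were tested, and by limma 1 was higher and 3 were lower in ADSF. Over all tested genes, 9.88% were higher and 11.3% lower by limma. edgeR called 2 higher and 3 lower, and DESeq2 called 2 of each. Col2a1, which codes for type II collagen, the main collagen of cartilage, was the gene that limma called higher, at 1126, 584 and 1356 in ADSF, against 144, 191 and 412 in NDSF. The libraries did not overlap, and the log2 fold change was 2.09 (SE 0.387, adjusted p = 0.00560, limma). Matn4, a matrilin, was lower at 12.9, 12.4 and 7.21 in ADSF, against 89.3, 102 and 32.9 in NDSF (log2 fold change -2.56, adjusted p = 0.00318, limma). Comp, coding for cartilage oligomeric matrix protein, had 5148, 2629 and 2765 in ADSF and 9024, 8858 and 4883 in NDSF (log2 fold change -1.13, adjusted p = 0.0242, limma). The Comp call ended without ADSF library 2 or 3 or NDSF library 1 or 2 (adjusted p = 0.0987, 0.0887, 0.0992 and 0.107, limma). The other lower gene, named after its values were seen, was Col11a2. It passed the filter through NDSF libraries only, the group where it is high, so the count of lower matrix genes is a description.

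The other chondrocyte markers had few reads in both fibroblast groups. Of the 9 markers, Col9a1 was at 0 in all ADSF libraries and averaged 4.75 in NDSF, Matn1 had no read in either fibroblast group, and Snorc, listed under its older symbol 3110079O15Rik, had 0 in ADSF and 0.313 in NDSF. Col9a2 averaged 5.28 in ADSF and 6.04 in NDSF, Matn3 4.28 in ADSF and 7.30 in NDSF, and Cnmd, listed as Lect1, 2.76 in ADSF and 2.86 in NDSF. Ucma averaged 0.830 in ADSF and 3.15 in NDSF, and Col9a3 0.401 in ADSF and 0.932 in NDSF. The summed level of the 9 markers was 599 to 1367 in ADSF libraries, 160 to 451 in NDSF and 3.42 to 5.19 in ADSM, most of it Col2a1 in the fibroblasts. Whether chondrocytes have a part in the results was not tested.

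Of 15 tendon and ligament genes, 14 were tested, 2 higher and 8 lower in ADSF than in NDSF, with a median log2 fold change of -1.01. By limma, 9.88% of all tested genes were higher and 11.3% lower. Dcn and Lum, which code for small proteoglycans on collagen fibrils, were lower. Dcn had 339, 586 and 421 in ADSF, against 6943, 5878 and 1719 in NDSF (log2 fold change -3.23, adjusted p = 0.00189, limma). Lum differed by -2.82 on the log2 scale (limma adjusted p = 0.00530), and Six2, a homeobox gene of developing tendon, by -1.79 (limma adjusted p = 0.00577). The higher genes were Col12a1, coding for a collagen of the fibril surface, at 12707 ± 2574 in ADSF against 8098 ± 964 in NDSF (log2 fold change 0.64, adjusted p = 0.0436, limma), and Tnc, for tenascin C, named after its values were seen. Both calls lay near the threshold and were not checked over the alternatives. The tenocyte markers Mkx and Thbs4 were not called (adjusted p = 0.0793 and 0.516, limma). Kera, for keratocan, was too low to test at 0, 2.49 and 0 in ADSF, against 167, 104 and 8.45 in NDSF. Summed over the 3 tenocyte markers, the level was 1622 to 18523 in ADSF, 5703 to 16083 in NDSF and 4.27 to 14.0 in ADSM. Most of it was Thbs4 in the fibroblasts, at 1593 to 18430 in ADSF and 5634 to 15799 in NDSF.

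**Figure D5:**
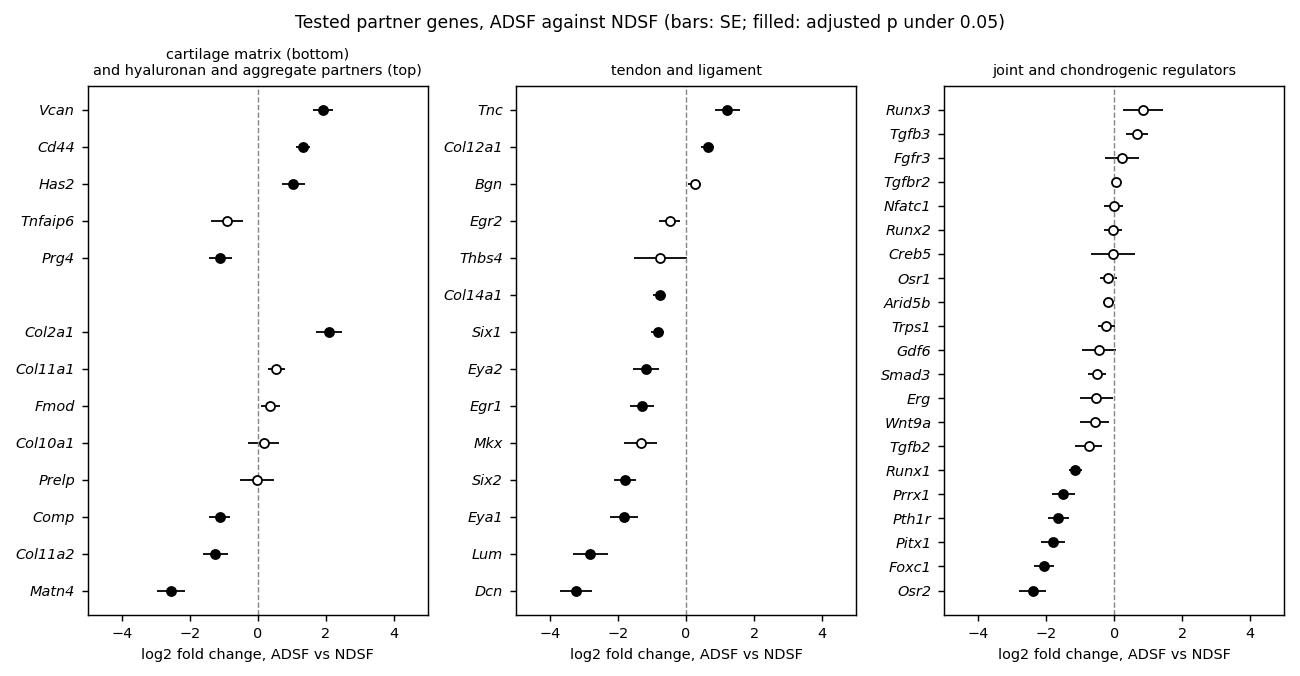
Log2 fold changes between ADSF and NDSF by limma for the tested genes of 4 lists, with the SE as a bar and filled points for an adjusted p under 0.05. Col2a1 stands at 2.09 and Vcan at 1.91 in the left panel, Dcn at -3.23 in the middle panel and Osr2 at -2.40 in the right panel.

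Some genes around the aggrecan aggregate were higher in ADSF. Of 12 hyaluronan and aggregate partners, 5 were tested, 3 higher, 1 lower and 1 not called. Among all tested genes the shares were 9.88% higher and 11.3% lower by limma. Vcan, coding for versican, the relative of aggrecan in soft tissues, had 1251, 2487 and 2345 in ADSF, against 432, 472 and 668 in NDSF (log2 fold change 1.91, adjusted p = 0.00215, limma). Cd44, the hyaluronan receptor gene, differed by 1.33 on the log2 scale (limma adjusted p = 0.00246) and Has2, a hyaluronan synthase gene, by 1.04 (limma adjusted p = 0.0470). The Has2 call lay near the threshold and was not checked over the alternatives. Prg4, coding for lubricin, was lower at 4098 ± 764 in ADSF against 8823 ± 1553 in NDSF (-1.11 on the log2 scale, limma adjusted p = 0.0395). Its adjusted p ran from 2.77e-06 to 0.141 over its alternatives, 14 of which ended the call. Of 16 chondroitin sulfate synthesis genes, all tested, 2 were higher in ADSF and 14 were not called. That count lies near the 9.88% of all tested genes that were higher. Chst11, a sulfotransferase gene for cartilage chondroitin, had 135, 214 and 157 in ADSF, against 27.6, 24.0 and 43.2 in NDSF (log2 fold change 2.40, adjusted p = 0.00191, limma). Slc26a2, a sulfate transporter gene, differed by 0.74 (limma adjusted p = 0.00992, and 0.0552 without NDSF library 2). None was lower by limma, edgeR or DESeq2, and 2 were at an unadjusted p under 0.05.

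Of 10 aggrecan-cleaving proteases, 9 were tested and 2 were lower in ADSF, where 11.3% of all tested genes were lower and 9.88% higher. Adamts9 had 29.8, 46.1 and 45.7 in ADSF, against 172, 163 and 240.3 in NDSF (log2 fold change -2.22, adjusted p = 0.00204, limma). Adamts4 was at the threshold (log2 fold change -0.86, adjusted p = 0.0496, limma) and lost its call in 21 of 27 alternatives. None was higher by limma, edgeR or DESeq2 or at an unadjusted p under 0.05. Adamts5, the main aggrecanase of mouse cartilage, averaged 1303 ± 162 in ADSF and 1425 ± 109 in NDSF and was not called (adjusted p = 0.480, limma). Of 26 regulators of joint formation and chondrogenesis, 21 were tested and 6 were lower in ADSF, beside the same 11.3% of all tested genes. None was higher by limma or at an unadjusted p under 0.05, and 1 was by edgeR and by DESeq2. Foxc1, a forkhead gene, differed by -2.06 on the log2 scale (limma adjusted p = 0.00190), Osr2, an odd-skipped gene of the joint, by -2.40 (limma adjusted p = 0.00339), and Runx1 by -1.15 (limma adjusted p = 0.00313). Of 11 other Sox genes, 4 were tested, and their adjusted p lay between 0.0986 for Sox4 and 0.896 for Sox12 (limma). Sox4, with 122, 115 and 154 in ADSF and 332, 278 and 148 in NDSF, was the 1 gene at an unadjusted p under 0.05, and edgeR and DESeq2 called 1 lower.

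Against ADSM, these partner genes lay mostly on the fibroblast side by limma. All tested cartilage matrix genes (8), tendon and ligament genes (14), other Sox genes (4), hyaluronan partners (5) and aggrecan-cleaving proteases (9) were higher in ADSF than in ADSM. Of the 21 regulators 18 were higher and 2 lower, and of the 16 chondroitin sulfate genes 10 were higher and 1 lower. Genes almost absent from ADSM, such as Col11a1 and Prrx1, passed the filter through fibroblast libraries only, so these counts are a description. Beside them, the shares over all tested genes in this comparison were 41% higher and 30.1% lower by limma. Bgn, coding for biglycan, averaged 19317 ± 405 in ADSF and 18.3 ± 6.14 in ADSM (log2 fold change 10.01, limma adjusted p = 1.50e-11). Col11a1, for a collagen of cartilage fibrils, averaged 1192 ± 116 in ADSF and 0.658 ± 0.572 in ADSM (log2 fold change 9.56, limma adjusted p = 1.34e-10), and Prrx1, a homeobox gene of limb mesenchyme, 621 ± 96.8 in ADSF and 0.908 ± 0.936 in ADSM.

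Markers of other cell types moved between the fibroblast groups as well. All 8 tested of 11 skeletal muscle markers were lower in ADSF than in NDSF, and their summed level was 61.0 to 106 in ADSF libraries, 970 to 2428 in NDSF and 0 to 4.15 in ADSM. Of 6 endothelial markers, 3 were tested and 2 were lower, with sums of 50.5 to 60.5 in ADSF and 141 to 384 in NDSF. For 8 osteoblast markers, of which 3 of 4 tested were lower, the sums were 54.1 to 154 in ADSF and 393 to 415 in NDSF. Myod1, Myog, Tnnc2, Myl1, Myh3, Pecam1, Cdh5, Phex and the pericyte marker Rgs5 reached the filter value of 10 in NDSF libraries only. They entered the test through the group where they are high, so the counts of lower markers are a description. Of all tested genes, 11.3% were lower in ADSF. Of the 10 genes, 7 (Hapln1, Chad, Cilp, Cilp2, Sox5, Sox6 and Scx) had their lowest NDSF value in library 3. The share over all tested genes was not computed. The muscle, endothelial, osteoblast, fibroblast, macrophage, pericyte, Schwann cell, adipocyte and tenocyte sums of NDSF were lowest in library 3 too, and the chondrocyte sum was highest there. The osteoblast sums were close, at 407, 415 and 393 in NDSF libraries 1 to 3. The muscle actin gene Acta1 had 68.5, 37.3 and 87.7 in ADSF and 635, 481 and 301 in NDSF. Myod1, Myf5, Pax7 and Ckm were at 0 in ADSF, and of these Pax7 was also at 0 in NDSF, while Myf5 averaged 0.614, Ckm 5.35 and Myod1 55.8 there. The part of these cells in the results was not tested. The 7 fibroblast markers summed to 45305 to 46981 in ADSF, 50532 to 74616 in NDSF and 23.9 to 71.0 in ADSM, with 1 of 7 lower in ADSF than in NDSF. The 6 macrophage markers summed to 207 to 401 in ADSF, 271 to 542 in NDSF and 12441 to 13389 in ADSM, with 1 of 6 lower in ADSF than in NDSF. Of 5 pericyte markers 2 of 4 tested were lower, of 5 Schwann cell markers 1 of 2, and of 4 adipocyte markers none could be tested.

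The genes whose log2(value + 1) followed each member most closely over the 6 fibroblast libraries were picked by Pearson correlation and are given as a description. Points share a library and its depth, and the 2 groups lie apart for several members. Chad was closest to Klhl41 (r = 0.999), with 2.98, 3.73 and 4.81 in ADSF and 53.4, 49.9 and 16.9 in NDSF, then to Add3 and Ldb2. For Cilp the closest were Dusp22 (r = 0.999), Mfsd11 and Wnt16, and for Cilp2 Folr2 (r = 0.998), Dctn1 and Add3. Sox5 was closest to Zfp518a (r = 0.998) and then to Nrap, at 3.97, 2.49 and 7.21 in ADSF and 62.6, 43.0 and 30.0 in NDSF. Tnmd was closest to Lzts2 (r = 0.995), Scx to Tle1 (r = 0.994), Sox6 to 4933412E12Rik (r = 0.994), Hapln1 to Zkscan5 (r = 0.991), Acan to Fbxo33 (r = 0.991) and Sox9 to Dusp5 (r = 0.972). Among the members themselves, r was 0.995 between Chad and Cilp2, 0.967 between Cilp2 and Sox5, and 0.939 between Chad and Sox5, against -0.14 between Acan and Chad.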

How the data were processed

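RNA was measured in 9 libraries of mouse ankle cultures, 3 each of ADSF, NDSF and ADSM, grouped by the deposited labels. The authors mapped reads to mm10 with TopHat, and their processing notes also name Cufflinks. Which program counted the reads, and whether by strand, was not given in the sources. The authors deposited a signal per gene, the reads divided by a TMM factor, for 23420 genes in 9 libraries. A second table of theirs holds the same signal for the 6 ADSF and ADSM libraries. The authors also deposited FPKM values for these 6 libraries, which were used only to check the order of genes in ADSF. Columns of q-values by the authors were not used, and 0 columns of sample values were left out.

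Every signal was a whole multiple of the value of 1 read within 0.001 (100% of values), which gave the reads behind it. limma 3.58.1 in R 4.3.3 was fitted with a mean per group and a variance trend to log2(value + 1), over the 11889 genes that reached 10 in 3 of 9 libraries, with a 2-sided test and Benjamini-Hochberg adjustment. edgeR 4.0.16 and DESeq2 1.42.0 on the recovered reads were alternatives. edgeR called 1155 genes higher and 1410 lower between ADSF and NDSF, and DESeq2 called 1088 and 1352. The fit was also run on simulated reads, with the same spread beyond counting error set for every gene and library. That setting is simpler than these data, where NDSF library 3 stood apart, and no result here rests on it. An exact permutation test of 3 against 3 libraries cannot go below p = 0.1 and was not used for single genes.

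The members, the lists of related genes and the tests were chosen with earlier results of these data known. Besides the 10 members, the text names genes from the top 3 of each list by limma adjusted p. These were ranked in ADSF against NDSF and in ADSF against ADSM. Cell type markers and genes among the 3 most like each member are named too. For some members only the closest of these is given. The text says where a list gene was added later. Leave-one-out fits on a fixed set of genes were added after seeing the data. Floors use 3 reads over a group, and intervals of 95% on read numbers cover counting error only. Promoter windows of RefSeq were trimmed to the 250 bases before the start, and protein sequences were not analysed here.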

Additional observations from a re-analysis of the deposited data

How the results depend on the processing

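Between ADSF and NDSF, Chad, Cilp2 and Sox5 kept their call in each alternative that could be fitted, 24, 24 and 27 in number. Without any single NDSF library, Chad and Cilp2 were not tested unless the genes were fixed, because they then reached the filter in too few libraries. The number of members lower in ADSF was 1 to 5 over the leave-one-out fits. Over the same fits, the number of all genes higher in ADSF was 347 to 2154, against 1175 with all libraries, and of those lower 409 to 1932, against 1343. With the genes fixed, an alternative chosen after seeing the data, the numbers were 390 to 2169 and 562 to 2086, and the members lower numbered 3 to 5.

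Of the members that were not called, Acan, Hapln1 and Sox9 changed direction. Acan turned to -0.21 without ADSF library 3 and to -0.33 without NDSF library 1. Hapln1 turned to 0.023 with edgeR, 0.0055 with DESeq2, 0.0072 with upper-quartile scaling, 0.15 without ADSF library 2 and 0.076 without NDSF library 1. Sox9 turned to -0.048 with scaling by total reads, to -0.12 without ADSF library 1 and to -0.075 without NDSF library 2. Over all leave-one-out fits the range was -0.33 to 0.31 for Acan, -0.16 to 0.15 for Hapln1 and -0.12 to 0.11 for Sox9. These values are log2 fold changes between ADSF and NDSF, and the cause was not tested.

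The replicate numbers did not pair the libraries. The correlation of same-numbered deviations from the group means was -0.14 to 0.18 between ADSF and NDSF, and in 9 of 18 cases a library was closest to its own number in another group. With the replicate number as a block, the same number of members, 5, was lower in ADSF, and 1033 genes were higher and 1274 lower overall. The order of the 10 genes in ADSF was the same by FPKM as per kb for all 10. Chad and Cilp2 rest on 4 reads and 1 read in ADSF, which limits any comparison of ADSF with ADSM for these genes. With all libraries neither was called there, and Chad passed in 1 alternative (limma adjusted p = 0.0307).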
